A study of Betula luminifera with 4 samples.

Results

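SPX proteins and the phosphate exporter PHO1 with its homologs were followed in the birch Betula luminifera as 18 assembled genes (contigs) of 76899 in the deposited table. A contig was taken when its Swiss-Prot description named an SPX domain, phosphate transporter PHO1 or a PHO1 homolog. The 18 contigs carried 10 protein names: SPX2 (2 contigs), SPX3, SPX4, the SPX membrane proteins At4g22990 (3 contigs) and OsI_17046, and PHO1 (3 contigs), PHO1-H1 (3 contigs), PHO1-H5, PHO1-H9 and PHO1-H10 (2 contigs). RNA came from clone G49#, raised from tissue culture, whose 2-month-old seedlings were moved to sand and given 2 weeks of medium with phosphate and then 2 weeks of water. The control groups (CK) then received medium with 1.25 mM KH2PO4. The LP groups received the same medium without KH2PO4, the only phosphate source, with potassium made up by K2SO4. Each medium gave 1 root library (CK roots, LP roots) and 1 shoot library (CK shoots, LP shoots) from equal amounts of stem and leaf RNA. The labels give 54 plants of a single clone in the experiment, but not how many went into each library.

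SPX domains bind inositol pyrophosphates, whose level follows the phosphate supply of the cell. In Arabidopsis and rice, SPX proteins without a membrane part bind PHR transcription factors and hold them off their targets while phosphate is plentiful. A second class joins the SPX domain to a transporter of the major facilitator superfamily (MFS) and moves phosphate into the vacuole. The PHO1 family joins an N-terminal SPX domain to a C-terminal EXS domain, and in Arabidopsis PHO1 and PHO1-H1 load phosphate from root cells into the xylem.

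Levels are TPM as deposited, a transcript's length-corrected share of a total that is fixed in every library, so that RNA of another organism or tissue lowers the levels of all other genes. With 1 library per group no difference has a replicate check, so none has a p-value. Calls, higher or lower, needed a log2 ratio of at least 1 in size after 1 TPM was added to both levels, and 1 TPM or more in the larger of them. Intervals of fold differences are 95% intervals that cover counting error only, from the number of fragments that each level stands for. For a contig listed at 0, a fold said to be at least a value compares the other level with 3 fragments in that library. It leaves out the counting error of that other level, so it is not a strict lower bound.

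By the smallest steps of the values, the libraries held an estimated 24500000 to 34400000 fragments. A level of 3 fragments was 0.909 to 2.13 TPM for a contig of 250 bp and 0.0399 to 0.076 TPM for one of 1500 bp. Of all TPM, contigs with a eudicot as best protein match took 66.0% (CK roots), 51.5% (LP roots), 82.5% (CK shoots) and 78.7% (LP shoots). Scaling by the median ratio of 12949 such contigs placed LP roots 0.63 log2 units below CK roots and LP shoots 0.11 above CK shoots. Log2 ratios called scaled are relative to these shifts. The 59 photosynthesis contigs used as shoot markers summed to 945 TPM in CK roots, 4295 TPM in LP roots, 56409 TPM in CK shoots and 38248 TPM in LP shoots. Most of the higher root sum in LP lay in the chlorophyll a-b binding proteins, which summed to 586 TPM (CK roots) and 3902 TPM (LP roots). Rubisco small subunits (27.5 and 50.4 TPM) and photosystem I subunits (44.4 and 77.9 TPM) were also higher in LP roots. Rubisco activase (202 and 194 TPM) and oxygen-evolving enhancer proteins (84.6 and 70.8 TPM) were not. The 17 contigs used as root markers did not tell the tissues apart by their sum, which was 352, 124, 497 and 511 TPM in the same order. Within them, 2 Casparian strip membrane proteins summed to 123 TPM in CK roots, 21.9 TPM in LP roots and 13.2 TPM in LP shoots and were listed at 0 in CK shoots. Root phototropism proteins, on the same list, summed to 18.1 TPM in CK roots, 12.1 TPM in LP roots, 397 TPM in CK shoots and 364 TPM in LP shoots.

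The 18 contigs were 230 to 2661 bp long. Of the 13 contigs of at least 400 bp, 10 were above 0 in all 4 libraries, but none of the 5 shorter ones was, and 4 contigs were above 0 in 1 library only. The best database match was a eudicot for 17 of them, most often the walnut Juglans regia. The exception was the 263 bp contig of At4g22990, whose best match was the moss Physcomitrella patens. The deposited Pfam column gave the SPX domain for 7 contigs, the EXS domain for 5, the MFS transporter domain for 4 and no domain for 2 (SPX3 and the 473 bp PHO1 contig). That column lists a single domain for 29618 of the 29706 contigs that have any, so a domain not listed is not shown to be missing. Contigs of the same name may be pieces of 1 transcript or different genes, and these cannot be told apart here. The 473 and 1370 bp contigs of PHO1, the 313 and 706 bp contigs of PHO1-H1 and the 263 and 2629 bp contigs of At4g22990 also shared the stem of their assembly identifier, so reads may have been split between them.

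**Figure D1:**
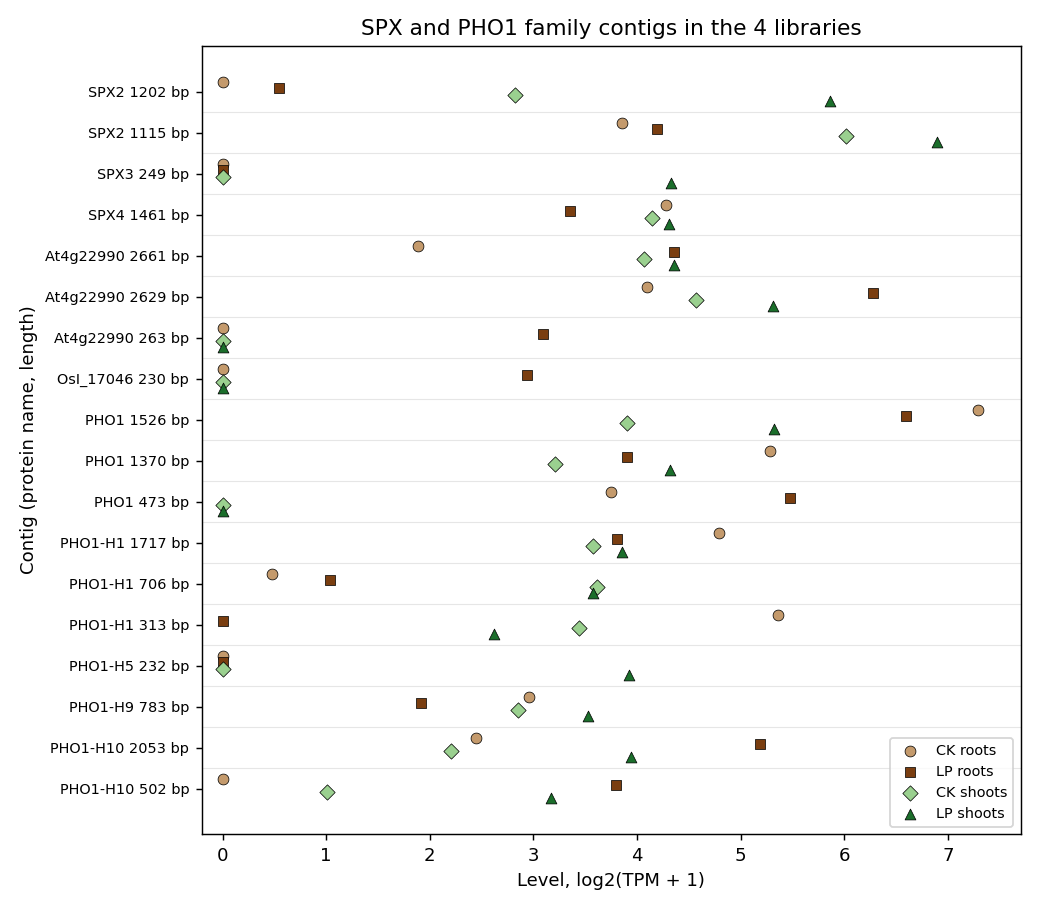
Level of each of the 18 contigs in each library, as log2(TPM + 1) on the horizontal axis, with 1 symbol per library and contigs labelled by protein name and length. PHO1 (1526 bp) reached the highest level, 155 TPM in CK roots, and the SPX2 contigs lay further right in both shoot libraries than in both root libraries.

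The SPX proteins without a membrane part, the class that in Arabidopsis and rice restrains PHR factors, were shoot transcripts in their most abundant members and stood highest in LP shoots. The 1115 bp SPX2 contig had levels of 13.4 TPM in CK roots, 17.3 TPM in LP roots, 63.8 TPM in CK shoots and 118 TPM in LP shoots. Both shoot libraries thus stood above both root libraries, and its best Nr match was a walnut SPX1-like protein. The 1202 bp SPX2 contig was listed at 0 in CK roots and had 0.46 TPM in LP roots, 6.06 TPM in CK shoots and 57.0 TPM in LP shoots. Its level in LP shoots was 9.40-fold that in CK shoots (95% interval 8.09 to 11.0), a called rise. The more abundant 1115 bp contig had a 1.84-fold higher level in LP shoots (1.74 to 1.95), which stayed short of the call. Summed over both contigs, SPX2 went from 69.9 to 175 TPM in shoots, a log2 ratio of 1.31, and stood at 13.4 and 17.8 TPM in roots.

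SPX3, in Arabidopsis a gene strongly induced by phosphate starvation, was covered by a 249 bp contig with 19.0 TPM in LP shoots and a listing of 0 in the other 3 libraries. That level, about 36 fragments, was at least 8.84-fold higher than in CK shoots. SPX4, which in rice retains PHR2 in the cytosol, had levels of 18.4 TPM in CK roots, 9.24 TPM in LP roots, 16.7 TPM in CK shoots and 18.8 TPM in LP shoots. LP roots stood lowest, with a log2 ratio of -0.92 to CK roots (scaled -0.35). The log2 ratio in shoots was 0.16, so SPX4 was called in neither tissue.

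The SPX membrane proteins, named for relatives that carry phosphate into the vacuole, were called higher in LP roots on all 4 contigs, where 64.2% of all genes tested were called higher. In shoots 2 of the 4 were testable and neither was called (40.1% of all genes were called higher there), while the 263 and 230 bp contigs were listed at 0 in both shoot libraries. The difference between the tissues was not tested. The 2629 bp contig of At4g22990 had levels of 16.0 TPM in CK roots, 76.6 TPM in LP roots, 22.8 TPM in CK shoots and 38.7 TPM in LP shoots. The 2661 bp contig had 2.70, 19.5, 15.8 and 19.4 TPM in the same order. For both contigs CK roots were the lowest library, and LP roots were the highest for the first contig and level with LP shoots for the second. The rise in roots was 4.78-fold (4.53 to 5.04) for the 2629 bp contig and 7.23-fold (6.36 to 8.23) for the 2661 bp contig, and both were called. In shoots the differences were 1.70-fold (1.61 to 1.80) and 1.23-fold (1.15 to 1.32), below the size needed for a call. Scaling raised the root log2 ratios from 2.19 to 2.80 and from 2.47 to 3.05.

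A 263 bp contig of At4g22990 (7.54 TPM) and the 230 bp contig of OsI_17046 (6.67 TPM), a name from rice, were above 0 in LP roots alone. These levels rested on about 29 and 17 fragments and were at least 5.16-fold and 3.38-fold higher than in CK roots. The 10 contigs named for PHO87, PHO91 or a vacuolar transporter chaperone, phosphate proteins of yeast, were likewise highest in LP roots. They summed to 185 TPM there, 0.38 TPM in LP shoots and 0 in both CK libraries. A 257 bp contig named GDE1, listed with the SPX domain but not among those 10, went the other way. It had 82.7 TPM in CK roots and was listed at 0 in LP roots and both shoot libraries. None of those 10 had a eudicot match. Where a species was given, their best match was mostly the flowering plant Anthurium amnicola, otherwise the algae Ostreococcus tauri or Monoraphidium neglectum. The OsI_17046 contig had its best match in the clover Trifolium subterraneum. Whether the 263 bp At4g22990 contig and the 230 bp OsI_17046 contig are birch transcripts was not tested.

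PHO1, the xylem loader, stood higher in roots than in shoots with phosphate on all 3 contigs. Without phosphate its 2 longer contigs differed less between the tissues, whereas the 473 bp contig remained at 0 in shoots. The 1526 bp contig, listed with the EXS domain, had levels of 155 TPM in CK roots, 95.7 TPM in LP roots, 13.9 TPM in CK shoots and 38.9 TPM in LP shoots. The 1370 bp contig, listed with the SPX domain, had 37.9, 13.9, 8.21 and 19.0 TPM in the same order. CK roots were the highest and CK shoots the lowest library for both. In shoots both contigs were called higher in LP, by 2.79-fold (2.55 to 3.07) and 2.31-fold (2.03 to 2.65). The log2 ratios were 1.42 and 1.12, or 1.30 and 1.0 when scaled. Scaled by all genes above 0 in the 4 libraries, the ratio of the 1370 bp contig was 0.99, short of a call.

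In roots the PHO1 contigs did not move together. The log2 ratio of the 1526 bp contig was -0.69, not called (scaled -0.07). That of the 1370 bp contig was -1.38, called lower, but no longer called at its scaled value of -0.79. The 473 bp contig rose from 12.4 TPM in CK roots to 43.4 TPM in LP roots, a 3.49-fold difference (2.84 to 4.31), and was listed at 0 in both shoot libraries. Summed over the 3 contigs, PHO1 stood at 206 and 153 TPM in CK and LP roots and rose from 22.1 to 57.9 TPM in shoots. The log2 ratio of this sum in roots was -0.42, but 0.20 when scaled, so its direction there turned.

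PHO1-H1, which in Arabidopsis shares xylem loading with PHO1, was covered by 3 contigs with unlike patterns. The 1717 bp contig, listed with EXS, had levels of 26.6 TPM in CK roots, 13.0 TPM in LP roots, 10.9 TPM in CK shoots and 13.5 TPM in LP shoots. Its log2 ratio in roots was -0.98, just short of a call, and -0.39 when scaled. The 706 bp contig, listed with SPX, had 0.39, 1.05, 11.3 and 10.9 TPM in the same order, so that it was a shoot contig, with about 7 fragments in CK roots. The 313 bp contig, also listed with SPX, had 40.0 TPM in CK roots, was listed at 0 in LP roots, and had 9.85 TPM in CK shoots and 5.13 TPM in LP shoots. Its level in LP roots was at least 83.9-fold lower than in CK roots. In shoots none of the 3 was called, and their log2 ratios ran from -0.82 to 0.28.

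PHO1-H10 was the PHO1 family name that was called higher without phosphate in both tissues on each of its contigs. Of all genes tested, 64.2% were called higher in LP roots and 40.1% in LP shoots. Its contigs may be pieces of the same transcript. The 2053 bp contig, listed with EXS, had levels of 4.43 TPM in CK roots, 35.4 TPM in LP roots, 3.60 TPM in CK shoots and 14.3 TPM in LP shoots. Both LP libraries lay above both CK libraries, with rises of 7.99-fold (7.12 to 8.97) in roots and 3.98-fold (3.43 to 4.64) in shoots. The 502 bp contig, listed with SPX, was listed at 0 in CK roots and had 12.9 TPM in LP roots, 1.01 TPM in CK shoots and 7.99 TPM in LP shoots. It was at least 42.4-fold higher in LP roots and 7.91-fold higher in LP shoots (3.81 to 18.9, about 8 fragments in CK shoots). The CK level of PHO1-H10, 4.43 TPM summed in roots and 4.61 TPM in shoots, was low beside that of PHO1 in the same libraries, and in LP roots the sum was 48.3 TPM.

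The remaining homologs were PHO1-H9 and PHO1-H5, whose roles are less well known. PHO1-H9 had levels of 6.78 TPM in CK roots, 2.78 TPM in LP roots, 6.19 TPM in CK shoots and 10.5 TPM in LP shoots. It was called lower in LP roots, with a log2 ratio of -1.04, but not at its scaled value of -0.55, and was not called in shoots (0.68). PHO1-H5, a 232 bp contig, was listed at 0 in 3 libraries and had 14.2 TPM in LP shoots, about 23 fragments and at least 5.49-fold higher than in CK shoots.

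**Figure D2:**
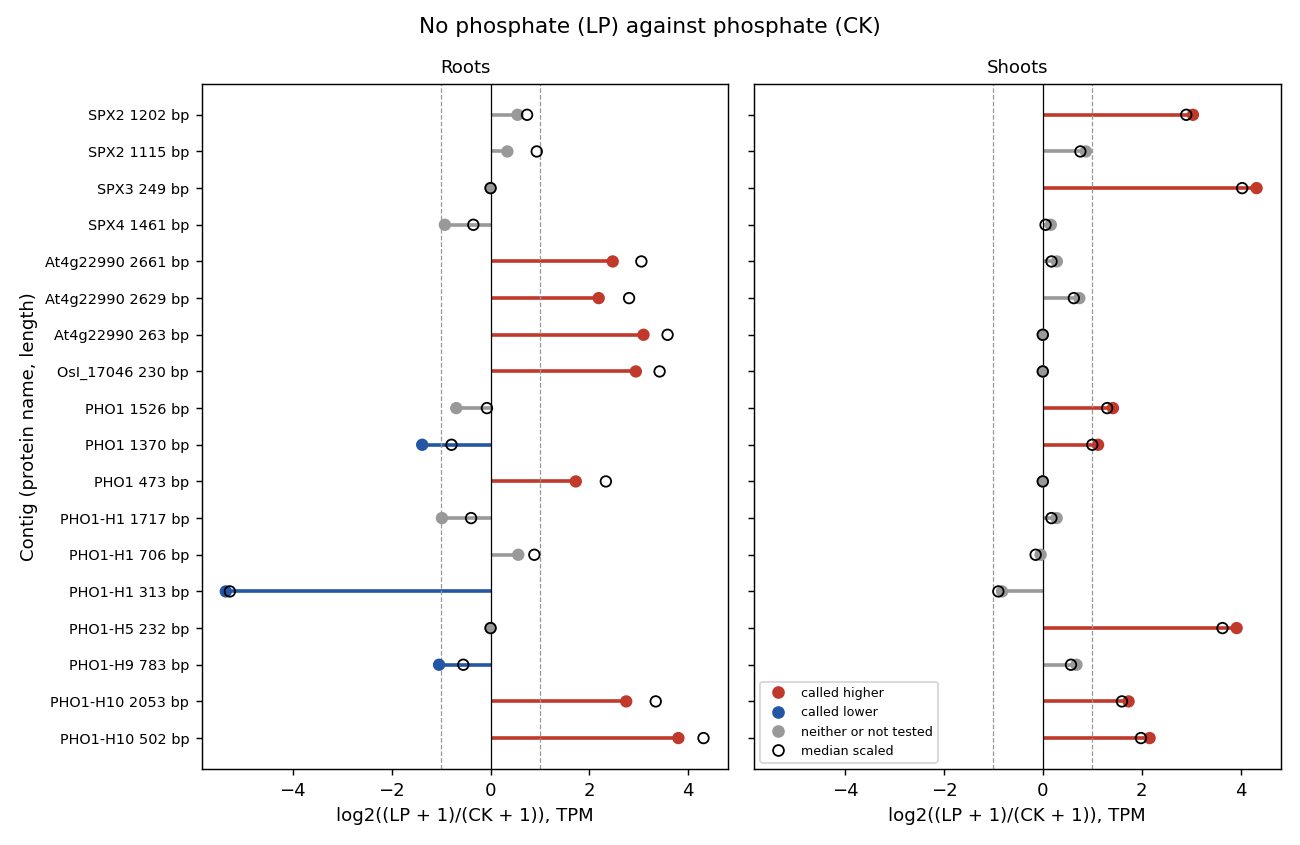
Log2((LP + 1)/(CK + 1)) of the TPM of each contig in roots (left) and shoots (right), coloured by call, with open circles for the scaled ratio and dashed lines at the size needed for a call. The At4g22990 and PHO1-H10 contigs lie to the right in roots, and no contig is called lower in shoots.

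Of the 15 contigs testable in roots, 7 were higher in LP and 3 lower, and 5 were neither. Over all genes tested, 64.2% were called higher and 22.4% lower in this comparison, so the count of higher contigs was below the background share. The lower count became 1 contig, the 313 bp PHO1-H1 contig, when scaled. Among the 12 testable contigs of at least 400 bp, 5 were higher and 2 lower, where 31.1% and 35.2% of 19005 eudicot-matched genes of that length were called. The median log2 ratio over the 15 contigs was 0.56, and over all 58668 genes tested it was 2.31. At 400 bp and more it was 0.45 over the 12 contigs and -0.23 over the eudicot-matched genes, so that the contigs lay below the first background and above the second. In LP roots the photosynthesis markers summed to 4.55 times their CK root level. The 17 root markers, whose sum did not tell the tissues apart, summed to 0.353 times theirs. Among these, Casparian strip proteins stood at 0.178 times and ROOT HAIR DEFECTIVE proteins at 0.57 times. These marker ratios are not scaled, and the median ratio of eudicot-matched contigs itself placed LP roots 0.63 log2 units below CK roots. The part of either marker set in the root differences was not tested. Fewer cells of a type and less RNA per cell cannot be told apart in these tissue libraries.

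In shoots 7 of 15 testable contigs were higher in LP, none was lower and 8 were neither. Over all genes tested 40.1% were called higher and 23.0% lower. Among the 12 testable contigs of at least 400 bp, 5 were higher and none lower, beside 18.8% and 15.6% of 22008 eudicot-matched genes of that length. The 5 were the 1202 bp SPX2 contig, the 1526 and 1370 bp PHO1 contigs and both PHO1-H10 contigs. The median log2 ratio of the 15 contigs was 0.87, where that of all genes tested was 0.39. At 400 bp and more these medians were 0.81 and, over the eudicot-matched genes, 0.07. The higher count was 6 contigs when scaled by all genes above 0 in the 4 libraries, as the 1370 bp PHO1 contig was then not called. The 2 higher contigs below 400 bp were SPX3 and PHO1-H5, both listed at 0 in CK shoots.

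Levels in roots and shoots were then compared within each medium. With phosphate, 5 of 14 testable contigs were higher in roots and 5 lower, beside 26.5% and 54.2% of all genes tested. The PHO1 family had 5 of 9 testable contigs higher and 2 lower, the SPX class 2 of 3 lower and the SPX membrane class 1 of 2 lower. The 5 higher in roots were the 3 PHO1 contigs and the 1717 and 313 bp contigs of PHO1-H1. The 1526 bp PHO1 contig stood 11.2-fold higher in CK roots than in CK shoots (10.2 to 12.2) and the 1370 bp contig 4.62-fold (4.08 to 5.26). The contigs lower in roots were both SPX2 contigs, the 2661 bp At4g22990 contig, the 706 bp PHO1-H1 contig and the 502 bp PHO1-H10 contig, of which the last had a log2 ratio of -1.01 (scaled -0.91). The 1115 bp SPX2 contig stood 4.74-fold higher in CK shoots. Among the 13 contigs of at least 400 bp, 4 were higher and 5 lower in CK roots, beside 18.6% and 48.2% of 21336 eudicot-matched genes of that length.

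Without phosphate 5 of 18 contigs were higher in roots and 7 lower, beside 41.7% and 37.5% of all genes tested. When scaled, 7 were higher and 6 lower, so the larger count changed sides. The 2629 bp At4g22990 contig (log2 ratio 1.80) and the 502 bp PHO1-H10 contig (1.41) were then called higher, and PHO1-H9 (-0.91) was no longer called lower. At 400 bp and more these were 3 and 4 of 13, beside 13.8% and 54.2% of 22201 eudicot-matched genes. The log2 ratio of roots to shoots of the 1526 bp PHO1 contig was 3.39 in CK and 1.28 in LP, and that of the 1370 bp contig was 2.08 in CK and -0.42 in LP. Scaled, the LP ratios were 2.11 and 0.38, so the direction of the 1370 bp contig turned, but both stayed under the scaled CK ratios of 3.49 and 2.17. The 473 bp PHO1 contig was at least 29.0-fold higher in roots in CK and at least 125-fold higher in LP. The log2 ratio of the 2661 bp At4g22990 contig went the other way, from -2.18 in CK to 0.01 in LP, and that of the 2629 bp contig from -0.48 to 0.97. Both SPX2 contigs stood higher in shoots in both media, and no change of that difference with the medium was shown. The 1202 bp contig was at least 76.9-fold higher in CK shoots than in CK roots, where it was listed at 0, and 124-fold higher in LP shoots than in LP roots (83.3 to 186). The log2 ratio of the 1115 bp contig was -2.17 in CK and -2.70 in LP, or -2.05 and -1.88 when scaled. These differences between media have no test, as each rests on 4 single libraries.

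**Figure D3:**
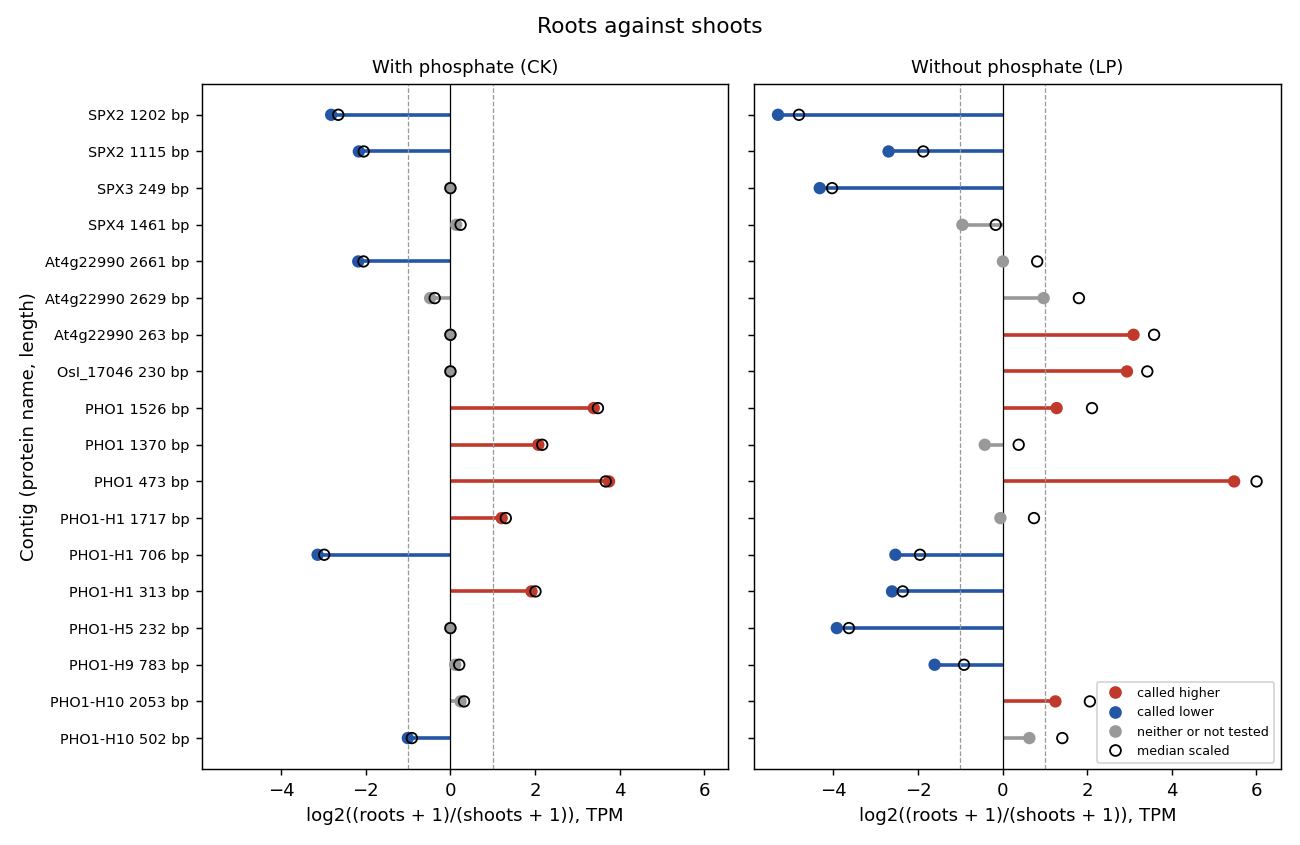
Log2((roots + 1)/(shoots + 1)) of the TPM of each contig with phosphate (left) and without (right), coloured by call, with open circles for the scaled ratio. The PHO1 contigs of 1526 and 1370 bp lie nearer to 0 without phosphate than with it, the 473 bp PHO1 contig lies further from it, and the SPX2 contigs lie to the left in both media.

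Where a PHO1 family name had a contig listed with EXS (EXS contig) and one listed with SPX (SPX contig), the ratio of their levels was not the same in every library. For PHO1, the 1526 bp contig stood at 4.10 times the 1370 bp contig in CK roots (3.89 to 4.32) and 6.87 times in LP roots (6.42 to 7.36), but at 1.70 times in CK shoots (1.47 to 1.96) and 2.05 times in LP shoots (1.9 to 2.21). The root and shoot ratios did not overlap in their counting intervals. For PHO1-H1, the 1717 bp contig stood at 68.2 times the 706 bp contig in CK roots (33.2 to 171) and at 0.97 times in CK shoots (0.809 to 1.16). Against the 313 bp SPX contig of the same name it stood at 0.666 times in CK roots (0.553 to 0.802), 1.11 times in CK shoots (0.741 to 1.73) and 2.63 times in LP shoots (1.61 to 4.62), so the 2 SPX contigs gave opposite pictures in CK roots. For PHO1-H10 the ratio of the 2053 bp contig to the 502 bp contig was 2.74 in LP roots (2.39 to 3.14), 3.56 in CK shoots (1.77 to 8.35) and 1.79 in LP shoots (1.43 to 2.29). The sum of a name over its contigs therefore weights its parts differently in roots and shoots.

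**Figure D4:**
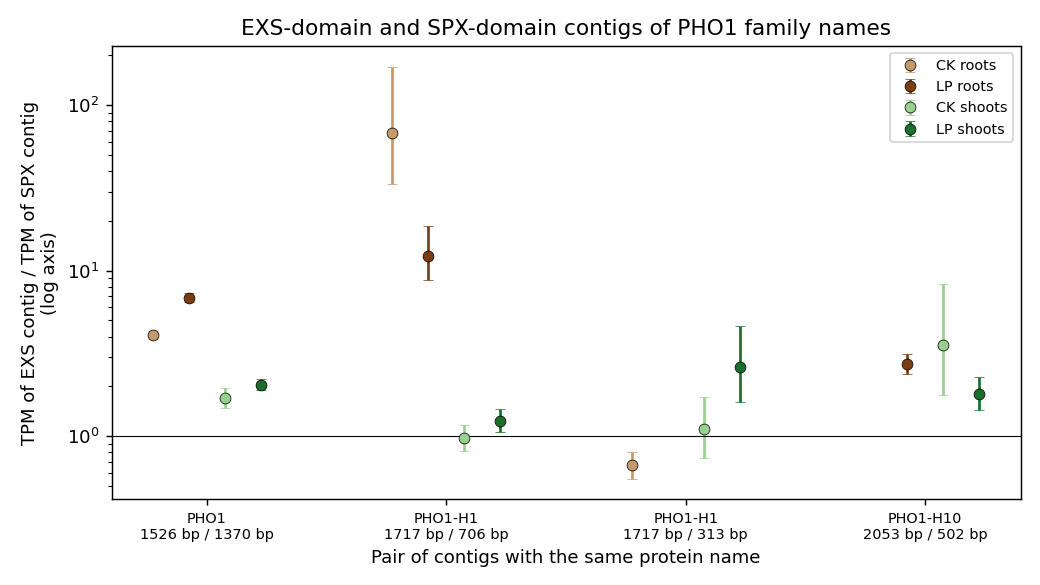
Ratio of the TPM of the EXS contig to that of the SPX contig of the same protein name in each library, on a log axis, with 95% counting intervals as bars; a library in which 1 contig is listed at 0 has no point. The PHO1 ratio runs from 1.70 in CK shoots to 6.87 in LP roots, and the ratio of the 1717 to the 706 bp contig of PHO1-H1 from 0.97 to 68.2, while against the 313 bp contig it runs from 0.666 to 2.63.

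Summed over their contigs as deposited, the classes were highest in different libraries. The SPX class summed to 31.9 TPM in CK roots, 27.0 TPM in LP roots, 86.6 TPM in CK shoots and 212 TPM in LP shoots. The SPX membrane class summed to 18.7, 110.4, 38.5 and 58.1 TPM in the same order, so that it was highest in LP roots. The PHO1 family summed to 284, 218, 65.0 and 134 TPM and was highest in CK roots as deposited. Scaling turned its log2 ratio of LP to CK roots from -0.38 to 0.24. That of the SPX class turned from -0.23 to 0.37. The 5 EXS contigs of the PHO1 family summed to 193, 147, 34.6 and 91.4 TPM, most of it from the 1526 bp PHO1 contig in both root libraries. Their log2 ratio of LP to CK roots was -0.39, and 0.23 when scaled. The 4 SPX contigs of the family summed to 78.3, 27.9, 30.3 and 43.0 TPM. In LP the EXS sum was thus 1.61-fold that of shoots in roots and the SPX sum 0.649-fold. Scaling turned the direction of the SPX sum, from -0.61 to 0.22 on the log2 scale. Contigs of different lengths enter these sums on the per-length TPM scale.

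Lists of the genes that work with SPX proteins and PHO1 were read by the same rule, beside all genes tested, of which 64.2% were higher and 22.4% lower in LP roots and 40.1% and 23.0% in LP shoots. Kinases of inositol phosphates and inositol pyrophosphates, among them IPK1, IPK2b and ITPK names, had 2 of 10 testable contigs higher and 1 lower in LP roots. In LP shoots 3 of 11 were higher and 1 lower. The 2 higher in LP roots were VIP1 (226 bp) and an unnamed 250 bp contig, both listed at 0 in CK roots and without a eudicot match. The 1 lower in LP roots, IPK2b, had a log2 ratio of -1.43, but -0.90 when scaled, short of a call. The 944 bp ITPK3 contig was then called higher in LP roots (0.72, scaled 1.32). The longest contig of a diphosphoinositol pentakisphosphate kinase (Ppip5k1), which makes inositol pyrophosphates, was called in neither tissue. It had levels of 15.6 TPM in CK roots, 14.6 TPM in LP roots, 11.0 TPM in CK shoots and 16.6 TPM in LP shoots. ITPK1, an inositol phosphate kinase, fell from 30.4 to 4.03 TPM in shoots and stood at 3.20 and 3.68 TPM in roots. Of 6 contigs for PHR factors, the partners of SPX proteins, 2 were higher and 3 lower in LP roots, and 1 was higher in LP shoots. That contig, named PHR2 and 2280 bp long, had levels of 62.0 TPM in CK roots, 18.6 TPM in LP roots, 27.6 TPM in CK shoots and 60.2 TPM in LP shoots. It was called lower in roots (log2 ratio -1.68) and higher in shoots (1.10, but 0.99 when scaled). Also lower in LP than CK roots were an unnamed 405 bp contig (6.23 against 74.4 TPM) and the 1418 bp PHL2 contig (3.4 against 19.8 TPM). The 2 higher in LP roots were the 1297 bp PHL2 contig (2.14-fold, 1.98 to 2.32) and an unnamed 789 bp contig. The latter went from 1.04 to 44.6 TPM (42.9-fold, 28.6 to 69.5).

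Of 11 contigs for turnover and trafficking of phosphate transporters, 5 of 10 testable ones were higher and none lower in LP roots, all 5 listed at 0 in CK roots. That share of higher contigs lay below the 64.2% of all genes tested, of which 22.4% were lower. In LP shoots 1 of 8 was higher and 1 lower, beside 40.1% and 23.0% of all genes. UBC24, also called PHO2, is the ubiquitin-conjugating enzyme that in Arabidopsis leads to degradation of PHO1. Its 2352 bp contig had levels of 48.4 TPM in CK roots, 40.6 TPM in LP roots, 33.6 TPM in CK shoots and 63.5 TPM in LP shoots, and its 2074 bp contig had 65.4, 38.8, 20.2 and 40.0 TPM. Their log2 ratios in shoots, 0.90 and 0.96, were just short of a call. A UBC24 contig of 879 bp, which shares its identifier stem with the 2074 bp contig, was listed at 0 in 3 libraries and had 4.96 TPM in LP roots, at least 41.4-fold higher than in CK roots. The PHT1 importers, which take up phosphate, had 3 of 14 testable contigs higher and 11 lower in LP roots and 8 of 12 higher and 4 lower in LP shoots, beside those same shares of all genes. The 3 higher in LP roots, of 238, 308 and 491 bp, had 1 fragment or none in CK roots. When scaled, the 281 bp PHT1-3 (-0.46), 549 bp PHT1-5 (-0.80) and 758 bp PHT1-9 (-0.80) contigs were no longer called lower in roots. The other lower root contigs stayed called. In shoots the 251 bp PHT1-7 contig (scaled 0.92) lost its higher call.

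The domain column also held 8 contigs with an SPX or EXS domain whose names the choice of members did not take. Of these, 6 were above 0 in 1 library only and 6 were under 400 bp. In CK roots alone were GDE1 (257 bp, SPX, 82.7 TPM) and xpr1 (262 bp, EXS, 42.3 TPM). In LP roots alone were TRY3 (229 bp, SPX, 8.75 TPM), BAH1 (206 bp, SPX, 22.3 TPM) and PHO87 (754 bp, SPX, 8.25 TPM). In LP shoots alone was an unnamed 307 bp contig (EXS, 5.04 TPM). The one above 0 in all 4 libraries, 1806 bp long and named for an SPX and EXS protein of Dictyostelium with its best match in Prunus mume, had levels of 46.5 TPM in CK roots, 30.5 TPM in LP roots, 27.3 TPM in CK shoots and 22.8 TPM in LP shoots. It was called in neither tissue.

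Genes with a like profile were sought over the 4 libraries as the smallest Euclidean distance between mean-centred log2(TPM + 1) levels, among 14093 eudicot-matched genes of at least 500 bp and 5 TPM with a Swiss-Prot name. Nearest to the 1526 bp PHO1 contig were the F-box protein At5g60570 (distance 0.19), the CASP-like protein 4A3 (At2g36330, 0.20) and midasin (mdn1, 0.21). At5g60570 had levels of 101 TPM in CK roots, 51.5 TPM in LP roots, 7.79 TPM in CK shoots and 22.0 TPM in LP shoots. Nearest to the 1115 bp SPX2 contig were the ubiquitin ligase ARI8 (0.07), cullin-1 (CUL1, 0.07) and the homeobox protein REVOLUTA (REV, 0.12). Some of these genes had low levels. ARI8 had 0.18, 0.41, 4.28 and 8.57 TPM in the same order, and midasin 12.5, 6.41, 0.38 and 2.61 TPM. At low levels the added 1 TPM narrows differences, so a small distance does not mean a like fold difference. With 4 values per gene such likeness describes these libraries only.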

How the data were processed

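Paired-end reads of poly(A) RNA from 4 libraries underlie the table, per the labels' protocols. Cutadapt 1.9 and FastQC were used, per the submitters' processing notes; how contigs were assembled and quantified is not given in the sources used here. The authors' values were read as TPM because the deposited columns sum to 999275 to 999865; the headers also name lengths and annotations. The members and lists were chosen with earlier results of these data known.

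Log2 ratios used a pseudocount of 1 TPM, a minimum of 1 TPM and a threshold of 1, with Python 3.11.15, pandas 2.3.3, numpy 2.4.6 and scipy 1.17.1. Every member is named or counted, and for 2 contigs the 3 nearest profiles. All comparisons were computed on the whole table. The eudicot match is the genus of the best Nr match, or of the Swiss-Prot match where Nr gave none.

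TPM keep no depth, but values of single-transcript genes of equal length lie on whole multiples of what 1 fragment is worth. That worth was fitted per library on contigs of 450 bp and more, and on each length below 400 bp. Of low values (under 6.5 fragments) 96.9% to 99.5% lay within 0.15 fragments of a whole number below 900 bp, where evenly spread values would give 30%. Between 900 and 1499 bp, where 2-decimal rounding is coarse, it was 58.3% to 100%. The worth was fitted on these same genes, so this closeness is in part built in and is no independent check. For genes with several isoforms the fragment numbers are approximate, and PCR copies are counted as separate molecules. The fit and the calls were tested on simulated data. No sequence was used here.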

Additional observations from a re-analysis of the deposited data

Results flagged for a closer look

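The 1370 bp PHO1 contig was singled out because its LP against CK log2 ratio had opposite signs past the call in the tissues, -1.38 in roots and 1.12 in shoots. The difference between the tissues was not tested, as each ratio compares 1 library with 1 library. When scaled the ratios were -0.79 and 1.0, so the root side was then no longer called. Scaled by all genes above 0 in the 4 libraries they were -0.89 and 0.99, and neither side was called. Because all groups hold 1 library, no group could be examined for a sample that stands apart from its replicates.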

How the results depend on the processing

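No paired analysis was possible because each group holds 1 library and no test was run; for the same reason no replicate could be left out. The count of contigs lower in LP roots, 3, became 1 under either median scaling and 1 at a log2 threshold of 2. At that threshold the contigs higher in LP shoots numbered 4 instead of 7, those higher in CK roots than CK shoots 3 instead of 5, and those higher in LP roots than LP shoots 3 instead of 5. Summed per protein name, 3 names were higher in LP roots, 2 higher and 2 lower in CK roots against CK shoots, and 3 higher in LP roots against LP shoots. Restricted to contigs of at least 400 bp, a choice made after seeing the data, 3 were higher and 4 lower in LP roots against LP shoots. Under either scaling 7 were higher and 6 lower in LP roots against LP shoots. The other counts stayed within 1.5 times under these settings, and all 8 did with a pseudocount of 0.1 TPM, no filter or a minimum of 5 TPM. No called log2 ratio of a contig changed sign under the other pseudocount or either scaling, and the 2 scalings moved 49 of 72 ratios each beyond their counting interval or, for contigs at 0, at all. Depth limits the short contigs most: those above 0 in 1 library rest on about 17 to 36 fragments.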
